A study of Rattus norvegicus with 20 samples.

Results

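The comparison of Food matched with Obese animals addressed how a ration tied to the intake of a drug-treated group, without the drug, bore on inguinal white adipose tissue (iWAT) of ZSF1 obese rats. Its members are 10 of the 20 iWAT libraries of the series, 5 from Food matched and 5 from Obese animals, and they were chosen by their titles and descriptions, with no measured value used. Both groups were untreated male ZSF1 obese rats, which carry the fa and cp mutations of the leptin receptor gene Lepr, were 21 to 22 weeks old when the 10 week study began and ate Purina 5008 chow. Obese animals ate freely. Food matched animals were given, each week, the amount of the same drug-free chow that another obese group on the PKC inhibitor Cmpd 1 had eaten in the week before, so their ration followed that group's intake from week to week and was not a fixed percentage cut. How far it lay below free feeding when the tissue was taken is not given by these data, and restriction at that time cannot be assumed. The other 10 libraries came from Lean and Cmpd 1 animals and entered the filter on low counts and the shared estimate of the spread, but not the comparison itself. A phenotype entry of lean stands with the Food matched libraries, which does not match their titles, and they were taken as obese. The animals sequenced were drawn at random from each group and only males were studied.

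Inguinal fat is a subcutaneous depot in which adipocytes store triglyceride and release fatty acids and hormones such as leptin, adiponectin and resistin. Macrophages, progenitor cells, vessels and nerves lie between the adipocytes, and obese fat is known to gather macrophages that take up lipid. A lower energy intake is known to alter insulin and glucocorticoid signalling to fat, and feeding patterns are known to set the phase of clock genes in peripheral tissues. In a rat without working leptin receptors the fat still makes leptin, but the brain does not sense it.

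The deposited counts summed to between 56743417 and 70206686 per Obese library and between 54649679 and 74784655 per Food matched library. The summed level of 10 adipocyte markers was 30340 to 36060 CPM (read counts scaled to library size) in Obese and 27350 to 33720 CPM in Food matched rats, so the tissue label held in every library. Lepr was at 1.56 ± 0.260 CPM in Obese and 1.82 ± 0.328 CPM in Food matched animals (SD, n = 5 rats each), with a log2 fold change of 0.22 and a 95% interval of −0.29 to 0.73, which does not test for the mutations. Some libraries stood apart. Food matched rat 5 had a summed level of 13 skeletal muscle markers of 108 CPM, where the other 9 libraries had 9.77 to 24.1 CPM. Obese rat 4 held 37.9 CPM of Scgb2a1, a secretoglobin of glands, which was at most 0.105 CPM in the other 9, and had the highest interferon-induced genes. On the first principal component of the 1000 most variable genes, with 19.9% of the variance, Obese rat 2 lay at −36.5 and the other 9 rats between −8.25 and 13.8.

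No gene passed a fold change over 1.5 with an adjusted p under 0.05 in edgeR's quasi-likelihood model with Benjamini-Hochberg adjustment, so by this test there were 0 differentially expressed genes (DEGs) among 17653 genes tested, a share of 0%. The smallest adjusted p from edgeR was 0.0647, shared by 12 genes. At an unadjusted p under 0.05 there were 1887 genes, 10.7% of those tested, of which 921 (5.22%) were higher and 966 (5.47%) lower in Food matched animals. Scaling by library size alone moved this split to 1179 higher and 724 lower and the median log2 fold change of all genes from −0.0006 to 0.0198. In 183 genes (1.04%) all 5 Food matched rats lay above all 5 Obese rats, and in 178 (1.01%) all 5 lay below.

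The differences that could be seen were small. Among the 12788 genes with a mean of at least 1 CPM the median standard error of the log2 fold change was 0.0793 and the median half-width of the 95% interval 0.165. Of the 1887 genes, 450 also differed by more than 1.5-fold, and 162 of these had at least 1 CPM. On the same genes and at the same thresholds limma-voom, which the study's methods name beside edgeR, called 10 DEGs, 4 higher and 6 lower, and DESeq2, which tested 22358 genes with its own size factors, called 69, of which 29 were higher and 40 lower. Without Food matched rat 5, edgeR called 93 DEGs, 39 higher and 54 lower. Since no gene passed the main test, genes are described below by their level in each rat, their log2 fold change and their unadjusted p from edgeR, read against the shares over all genes given here.

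**Figure D1:**
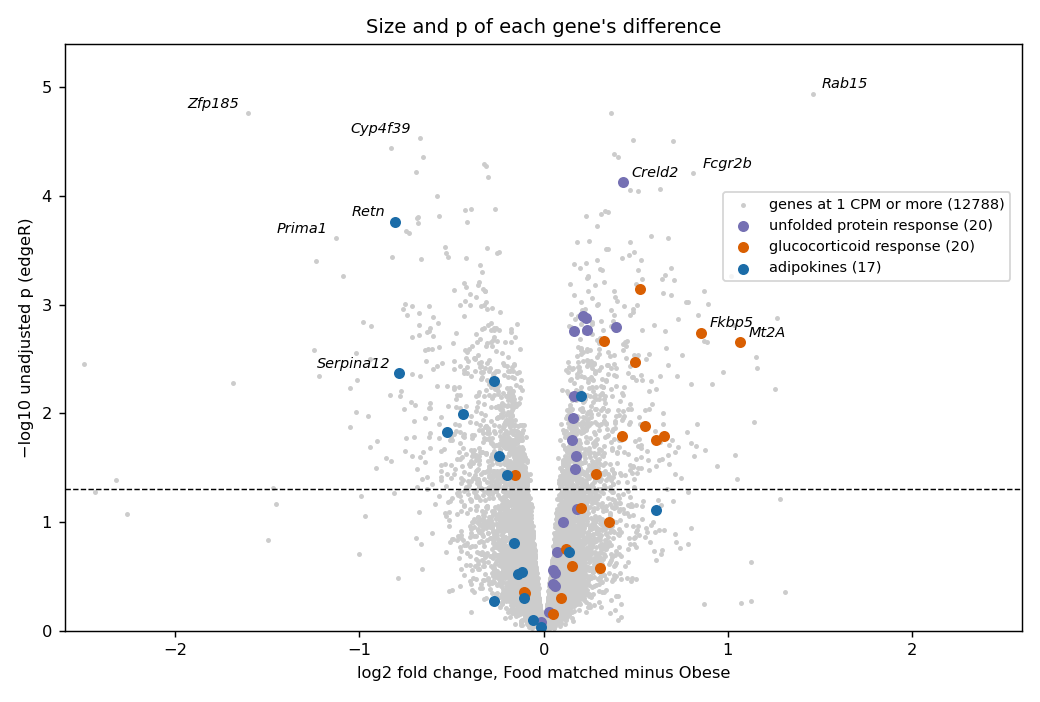
The log2 fold change of each gene with at least 1 CPM (Food matched minus Obese, x axis) against −log10 of its unadjusted p from edgeR (y axis, with a dashed line at the 0.05 threshold), with 3 gene lists in colour and 10 genes beyond the x axis left out. Rab15 and Zfp185 lie at the top right and top left, the members of the unfolded protein and glucocorticoid response lists lie mostly to the right of 0, and most adipokines lie to the left.

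Rab15, a small GTPase of endosomes and vesicle traffic (chr6:99845954-99870024, minus strand in rn6), had the largest positive log2 fold change among the genes of at least 1 CPM in which the groups did not overlap. It was at 4.37, 5.08, 6.38, 5.20 and 5.51 CPM in Obese rats 1 to 5 and at 19.0, 19.5, 11.5, 16.4 and 6.67 CPM in Food matched rats 1 to 5. Its log2 fold change was 1.46 (standard error 0.25, 95% interval 0.93 to 1.99, adjusted p = 0.0647 from edgeR). The Obese rats lay close together, and among the Food matched rats only rat 5 lay near them.

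Several of the next genes belong to macrophages. Fcgr2b, the inhibitory Fc receptor of myeloid and B cells, was at 35.8, 41.7, 41.4, 47.5 and 41.9 CPM in Obese and 78.6, 97.1, 62.5, 73.0 and 54.2 CPM in Food matched rats (41.7 ± 4.15 and 73.1 ± 16.4 CPM, SD, n = 5 rats each), 0.81 on the log2 scale (standard error 0.16, adjusted p = 0.0675 from edgeR). Cd163, the haptoglobin-hemoglobin receptor of resident macrophages, was at 61.8, 95.6, 69.2, 55.5 and 79.2 CPM in Obese and 125, 168, 96.8, 106 and 99.958 CPM in Food matched rats, 0.72 on the log2 scale with an adjusted p = 0.215 from edgeR. Atp6v0d2, a subunit of the vacuolar proton pump found in macrophages and osteoclasts, was at 4.98 to 6.71 CPM in Obese and 6.89 to 13.6 CPM in Food matched rats (0.73). In each of these genes every Food matched rat was above every Obese rat, and the gap between the groups was narrowest at Food matched rat 5 for Fcgr2b and Atp6v0d2 and at rat 3 for Cd163.

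The other genes of this group had low levels. Kcnh1, a voltage-gated potassium channel, was at 0.735 to 1.10 CPM in Obese and 1.11 to 2.14 CPM in Food matched rats (0.89 on the log2 scale). The ranges were 1.21 to 1.96 and 2.02 to 3.88 CPM for Hhipl1 (0.77) and 1.42 to 2.06 and 2.13 to 4.11 CPM for Comp, a cartilage matrix protein (0.75). Slc28a1, a nucleoside carrier, was at 0.687 to 1.01 and 1.27 to 1.79 CPM (0.73). Their adjusted p values from edgeR lay between 0.141 and 0.194.

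Zfp185, which encodes an actin-associated LIM domain protein (chrX:152999016-153031444, plus strand in rn6), had the largest negative log2 fold change among the genes of at least 1 CPM in which the groups did not overlap. It was at 4.12, 5.88, 4.63, 4.17 and 4.63 CPM in Obese and 1.33, 0.686, 1.12, 1.89 and 2.72 CPM in Food matched rats, a log2 fold change of −1.60 (standard error 0.29, 95% interval −2.20 to −1.01, adjusted p = 0.0647 from edgeR). Prima1, the membrane anchor of acetylcholinesterase, was at 12.994, 11.0, 12.1, 9.93 and 10.6 CPM in Obese and 3.66, 6.61, 3.49, 5.57 and 6.61 CPM in Food matched rats, −1.13 on the log2 scale with an adjusted p = 0.105 from edgeR. In both genes the highest Food matched rat was well under the lowest Obese rat.

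A pair of signalling genes followed. Cish, a feedback inhibitor of cytokine and growth hormone receptors that STAT5 induces, was at 8.59, 9.12, 10.8, 6.43 and 6.46 CPM in Obese and 4.51, 3.98, 3.49, 3.92 and 4.61 CPM in Food matched rats (−1.01, standard error 0.32, adjusted p = 0.219 from edgeR). Il20rb, a receptor chain for interleukins of the IL-20 group, was at 11.2, 12.4, 9.88, 9.35 and 10.7 CPM and 4.64, 4.99, 6.10, 5.36 and 9.17 CPM (−0.83, standard error 0.16, adjusted p = 0.0647 from edgeR). Food matched rats were at similar Cish levels, while for Il20rb rat 5 lay just under the lowest Obese rat.

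The remaining genes with large negative values were Cpa1, a pancreatic-type carboxypeptidase (2.10 to 2.56 CPM in Obese and 0.479 to 1.99 CPM in Food matched rats, −1.05 on the log2 scale), and Pcp4l1 (−1.02). Spon2, a secreted matrix protein, had a log2 fold change of −0.98 and Megf10, an engulfment receptor, of −0.82. Spon2 was at 20.5 CPM in Obese rat 3 and between 8.19 and 9.53 CPM in the other Obese rats.

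By the smallest p, other genes came forward with smaller log2 fold changes. Pla2g15, the lysosomal phospholipase A2, was at 187, 177, 207, 207 and 205 CPM in Obese and 272, 287, 244, 247 and 217 CPM in Food matched rats (0.37, standard error 0.07). Slc7a6, an amino acid transporter, had 34.8 to 48.2 CPM in Obese and 51.3 to 66.0 CPM in Food matched rats (0.49), and Igsf7 2.69 to 3.29 and 3.96 to 6.24 CPM (0.70). Cyp4f39, a fatty acid hydroxylase, was lower at 20.8 to 31.0 CPM in Food matched against 37.3 to 46.2 CPM in Obese rats (−0.67). All 4 genes had no overlap between the groups and the same adjusted p = 0.0647 from edgeR. Kcnk15, a potassium channel gene with that adjusted p too, was almost unread. It was at 0.0585, 0.137, 0.0699, 0.108 and 0.353 CPM in Obese rats and listed at 0 in 4 Food matched rats, so no fold change is given.

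**Figure D2:**
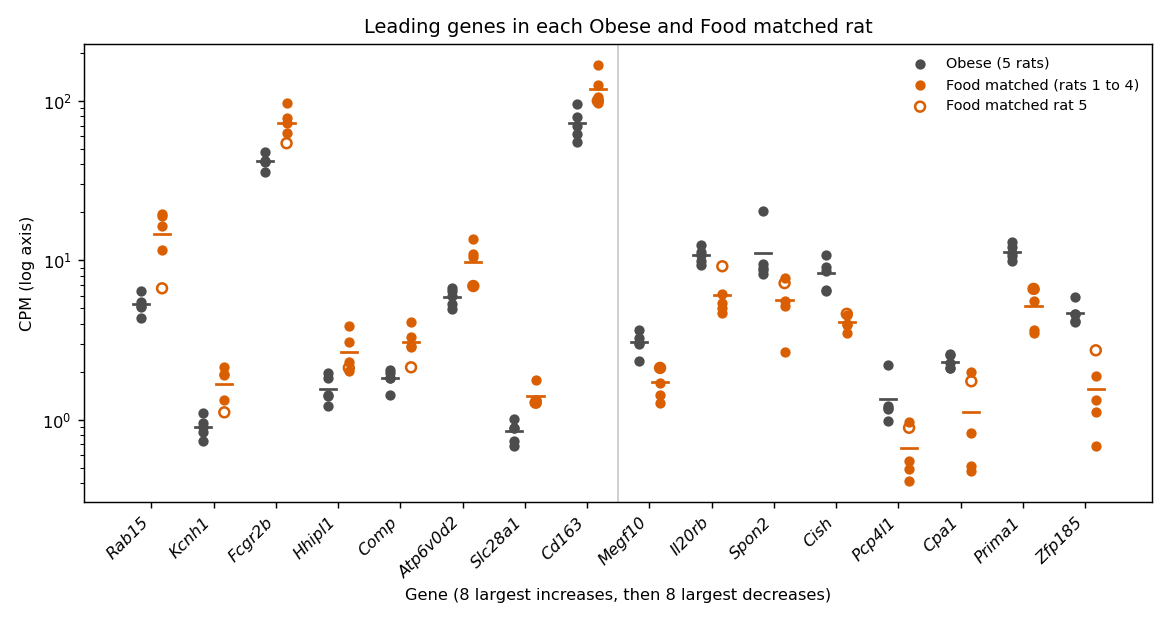
CPM on a log axis in each rat for the 8 genes with the largest positive and the 8 with the largest negative log2 fold changes, with short bars for group means and an open circle for Food matched rat 5. In these genes, chosen for groups that do not overlap, rat 5 was the Food matched rat closest to the Obese rats in 10 of 16.

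The lists of genes were drawn up by pathway and cell type, 39 pathway lists and 8 marker lists with 813 different genes, of which 797 were in the table and 777 were tested. No list held a DEG in the main test. Some genes, among them Per1, Pdk4, Mmp12 and Cxcl10, stand in several lists, so the counts of different lists are not separate. Counts of members at an unadjusted p under 0.05 stand against 5.22% higher and 5.47% lower over all genes. Up to 3 genes per list are named by their p, and members named beyond these were chosen after their values were seen. Since the tissue was read in bulk, fewer cells of a type and less RNA per cell cannot be told apart.

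The genes of the unfolded protein response showed the most even difference. This response raises chaperones and folding enzymes of the endoplasmic reticulum when unfolded protein builds up there. Of 20 members tested 11 were higher at an unadjusted p under 0.05 and 0 lower, against 5.22% and 5.47% of all genes, and 19 of 20 had a positive log2 fold change with a median of 0.16. With 1 rat left out in turn, 7 to 12 (7 without Food matched rat 1) members were higher. The mean log2 CPM of the list, set to 0 for the mean of the Obese rats, was −0.06, −0.03, 0.03, 0.01 and 0.05 in Obese rats 1 to 5 and 0.26, 0.19, 0.19, 0.06 and 0.06 in Food matched rats 1 to 5. It was the 1 list of 47 in which these means did not overlap, and Food matched rats 4 and 5 lay just above Obese rat 5.

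Creld2, a chaperone-like disulfide isomerase of this response, led the list. It was at 27.0, 26.1, 30.2, 27.7 and 31.1 CPM in Obese and 43.0, 37.3, 41.5, 35.2 and 34.4 CPM in Food matched rats, 0.43 on the log2 scale (standard error 0.09, adjusted p = 0.0729 from edgeR), with no overlap. Dnajb9, a cochaperone, did not overlap either, at 30.7 to 34.4 CPM in Obese and 34.6 to 42.3 CPM in Food matched rats (0.23). The disulfide isomerase Pdia4 was at 97.0, 102, 117, 103 and 100.1 CPM and 127, 128, 126, 108 and 113 CPM (0.22), and only Obese rat 3 reached into the Food matched range.

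The large chaperones were higher by less. Hspa5, the main chaperone of the endoplasmic reticulum, was at 763, 768, 805, 744 and 822 CPM in Obese and 959, 842, 907, 778 and 907 CPM in Food matched rats (0.17, adjusted p = 0.41 from edgeR). Hsp90b1, its partner of the Hsp90 family, had a log2 fold change of 0.18 and Calr, a lectin chaperone, of 0.15. Hyou1 (0.24), Sdf2l1 (0.39), Manf (0.16), Dnajb11 (0.16) and Herpud1 (0.17), which acts in degradation at the same membrane, were also higher at an unadjusted p under 0.05. Of the sensors and transcription factors of the response, the list held Atf6 and Xbp1, whose transcript levels differed little. The log2 fold change was 0.03 (95% interval −0.11 to 0.17) for Atf6 and −0.02 (−0.17 to 0.14) for Xbp1. Other sensors were not in the list. Of the amino acid branch, Asns (asparagine synthetase) was at 78.9 to 94.9 CPM in Obese and 64.5 to 81.8 CPM in Food matched rats (−0.19), and that list of 19 genes had 1 higher and 4 lower at a p under 0.05 before adjustment.

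Promoters of chaperone genes are known to carry the endoplasmic reticulum stress element (ERSE), through which ATF6 and XBP1 act. Its letters, CCAAT and CCACG with 9 bases of any kind between them, searched on both strands from 250 bases before to 50 bases after the start of each gene, were found in 7 of the 16 members with a RefSeq promoter (GRCr8) and in 22 of 33469 promoters in all (0.0657%). The 4 promoters with a match whose gene was higher at an unadjusted p under 0.05 are shown because they let the element be compared across members of different level, with the matches in capitals.
Creld2 (chr7:121789134-121789433, plus strand): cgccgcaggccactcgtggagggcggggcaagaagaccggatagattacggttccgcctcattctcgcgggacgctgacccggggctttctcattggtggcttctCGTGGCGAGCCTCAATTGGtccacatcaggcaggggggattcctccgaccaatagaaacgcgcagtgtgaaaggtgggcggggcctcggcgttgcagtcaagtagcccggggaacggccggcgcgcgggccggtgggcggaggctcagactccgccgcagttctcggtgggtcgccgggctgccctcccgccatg
Hspa5 (chr3:38452766-38453065, plus strand): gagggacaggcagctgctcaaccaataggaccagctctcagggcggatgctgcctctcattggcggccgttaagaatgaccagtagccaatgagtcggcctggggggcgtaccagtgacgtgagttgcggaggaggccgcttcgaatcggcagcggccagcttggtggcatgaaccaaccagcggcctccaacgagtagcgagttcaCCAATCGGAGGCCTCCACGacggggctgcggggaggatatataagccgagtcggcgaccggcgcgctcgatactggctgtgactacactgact
Hsp90b1 (chr7:23012244-23012543, minus strand): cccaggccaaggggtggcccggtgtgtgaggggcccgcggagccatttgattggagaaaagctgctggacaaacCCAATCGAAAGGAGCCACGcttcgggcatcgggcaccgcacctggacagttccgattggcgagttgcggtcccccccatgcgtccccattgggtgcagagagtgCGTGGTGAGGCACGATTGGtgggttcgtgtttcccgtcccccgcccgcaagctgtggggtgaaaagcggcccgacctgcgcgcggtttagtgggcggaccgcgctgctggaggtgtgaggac
Calr (chr19:40213117-40213416, plus strand): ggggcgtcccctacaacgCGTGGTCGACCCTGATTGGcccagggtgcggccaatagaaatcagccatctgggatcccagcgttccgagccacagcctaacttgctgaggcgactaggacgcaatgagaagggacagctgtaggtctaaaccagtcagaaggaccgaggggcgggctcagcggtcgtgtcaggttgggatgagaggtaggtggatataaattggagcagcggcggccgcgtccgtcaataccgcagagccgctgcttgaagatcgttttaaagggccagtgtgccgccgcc
The match began 145 bases before the start of Creld2, 43 before that of Hspa5, 232 before that of Calr, and 176 and 72 before that of Hsp90b1.

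A match to these letters did not sort the members. Only this spacing was searched, so members without a match may carry another form of the element, and the comparison cannot tell whether the element as such sorts them. Of the 7 with a match 4 were higher at an unadjusted p under 0.05, with a median log2 fold change of 0.153 over the 7, and of the 9 without a match 6 were higher, with a median of 0.181. Canx, Dnajc3 and Xbp1 held a match and were not among the higher genes. Atf6, Manf, Pdia3 and Pdia6 had no entry.

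The mean level of the glucocorticoid response list was above every Obese rat in 4 of the 5 Food matched rats. Besides genes that glucocorticoids are known to induce, the list holds the receptor gene Nr3c1 and the enzyme gene Hsd11b1. Of 20 members 10 were higher and 1 lower at a p under 0.05 before adjustment, again against 5.22% and 5.47% of all genes, with a median log2 fold change of 0.32, and 8 to 12 were higher with 1 rat left out in turn. The list mean was −0.18, 0.01, −0.17, 0.20 and 0.14 in Obese rats 1 to 5 and 0.52, 0.43, 0.43, 0.34 and −0.07 in Food matched rats 1 to 5. Food matched rat 5 was below Obese rats 2, 4 and 5. In all 11 members with an unadjusted p under 0.05, rat 5 lay inside the Obese range.

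Fkbp5, a cochaperone of the glucocorticoid receptor that the receptor induces, was at 53.2, 69.8, 59.9, 117 and 136 CPM in Obese and 204, 166, 173, 146 and 96.6 CPM in Food matched rats, 0.85 on the log2 scale (standard error 0.24, adjusted p = 0.159 from edgeR). The Obese rats lay apart from each other here, with rats 4 and 5 between Food matched rats 4 and 5. Tsc22d3, the glucocorticoid-induced leucine zipper, was at 96.8 to 177 CPM in Obese and 132 to 218 CPM in Food matched rats (0.49). The metallothionein Mt2A was at 27.9, 37.3, 26.5, 51.6 and 29.5 CPM and 111, 74.3, 77.1, 64.9 and 34.2 CPM (1.07, standard error 0.30, adjusted p = 0.175 from edgeR), the largest fold change of the list.

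In 3 further genes of the list, Glul, Map3k6 and Pdk4, rat 5 was again the lowest of the Food matched rats. Glul, glutamine synthetase, was at 1279.8, 1308, 1481, 1654 and 1546 CPM in Obese and 2073, 1849.9, 1855, 1762 and 1576 CPM in Food matched rats (0.33, adjusted p = 0.175 from edgeR). Map3k6, a stress kinase, was at 12.9 to 17.4 CPM and 16.4 to 26.4 CPM (0.52). Pdk4, which blocks pyruvate oxidation, was at 61.9, 86.0, 87.6, 118 and 137 CPM and 177, 158, 216, 135 and 83.8 CPM (0.65, standard error 0.25). Nr3c1, the receptor itself, was lower at 139 to 178 CPM against 163 to 186 CPM (−0.16, adjusted p = 0.423 from edgeR). Hsd11b1, which regenerates active glucocorticoid in fat, had a log2 fold change of 0.05 (95% interval −0.21 to 0.31). Without Food matched rat 5, 4 members of the list were DEGs, namely Fkbp5, Mt2A, Tsc22d3 and Map3k6.

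Several repressors of the circadian clock were higher in Food matched animals. The hour at which the tissue of each rat was taken is not given in the sources used here. Its part in the values of this list and of the glucocorticoid list cannot be told apart from that of the ration. Of 21 members 7 were higher and 2 lower at a p under 0.05 before adjustment, 5 to 8 and 1 to 3 with 1 rat left out in turn, and in 5 members every Food matched rat was above every Obese rat, where 1.04% of all genes showed this. Cry1, a repressor, was at 5.88, 5.68, 4.75, 5.20 and 6.60 CPM in Obese and 7.47, 8.42, 9.04, 8.33 and 6.83 CPM in Food matched rats (0.51, standard error 0.11, adjusted p = 0.0759 from edgeR). Per2, its partner, was at 42.9, 44.7, 45.6, 46.3 and 51.2 CPM and 58.1, 85.3, 61.028, 64.6 and 54.8 CPM (0.49, standard error 0.11, adjusted p = 0.11 from edgeR). For Tef, an output transcription factor, the Obese rats lay within 111 to 114 CPM and the Food matched rats at 117, 140.1, 122, 128 and 123 CPM (0.17).

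Per1 (0.55), Ciart (0.40) and Bhlhe41 (0.30), repressors as well, were higher at an unadjusted p under 0.05. Of the 9 clock members at that threshold, Food matched rat 5 was the Food matched rat nearest to the Obese group in 5. It lay inside the Obese range in 2. Csnk1d, a kinase of the PER proteins, had 112 to 115 CPM in Obese and 118 to 122 CPM in Food matched rats (0.08). Lower were the activator Npas2, at 1.73 to 3.18 CPM in Obese and 1.23 to 2.06 CPM in Food matched rats (−0.45), and Nr1d1, which represses Arntl, at 56.9 to 80.4 and 52.7 to 70.7 CPM (−0.27). Clock had a log2 fold change of −0.15 (95% interval −0.30 to 0.01), Arntl of −0.14 (−0.39 to 0.12) and Dbp of 0.21 (−0.03 to 0.45). The E-box CACGTG, to which the activators bind, was in 4 of the 17 promoters of the list with an entry and in 2148 of 33469 promoters in all (6.42%). Those 4 were the promoters of Tef, Ciart, Bhlhe40 and Bhlhe41. Of these 4 genes 3 were higher at an unadjusted p under 0.05, with a median log2 fold change of 0.23 over the 4. Of the 13 without a match in this window 2 were higher and 2 lower, with a median of 0.049. Only this form was searched, so genes without a match may carry an E-box elsewhere or in another form, and the split was not tested.

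The mean level of macrophage genes was above every Obese rat in Food matched rats 1 to 4 and not in rat 5. Of 19 members 7 were higher and 0 lower at a p under 0.05 before adjustment (against 5.22% and 5.47% of all genes), with a median log2 fold change of 0.26 and 6 to 11 (11 without Food matched rat 5) higher with 1 rat left out in turn. The list mean was −0.14, −0.09, 0.12, 0.11 and 0.00 in Obese rats 1 to 5 and 0.32, 0.42, 0.18, 0.19 and −0.03 in Food matched rats 1 to 5. The chains of the complement protein C1q, which macrophages make, differed in the same direction. C1qb was at 115, 144, 138, 118 and 111 CPM in Obese and 192, 234, 152, 165 and 149.7 CPM in Food matched rats (0.51, standard error 0.15, adjusted p = 0.204 from edgeR), and C1qa and C1qc had log2 fold changes of 0.37 and 0.47. Mrc1, the mannose receptor, was at 441, 436, 556, 619.9 and 593 CPM and 766, 886, 709, 692 and 511 CPM (0.43), and the integrin Itgam at 134 to 179 and 162 to 266 CPM (0.43). Not all macrophage markers followed, since Csf1r had a log2 fold change of 0.06 (95% interval −0.08 to 0.21) and Adgre1 of −0.09 (−0.28 to 0.10).

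The list of lipid-associated macrophages, which surround lipid-laden adipocytes, had 7 of 19 members higher and 1 lower at a p under 0.05 before adjustment. These counts stand against 5.22% and 5.47% of all genes. The median log2 fold change was 0.29, and 4 to 11 (4 without Food matched rat 2, 11 without Food matched rat 5) were higher with 1 rat left out in turn. Mmp12, the macrophage elastase, was at 54.6, 50.7, 60.8, 54.2 and 40.4 CPM in Obese and 116, 132, 81.7, 128 and 55.5 CPM in Food matched rats (0.97, standard error 0.30, adjusted p = 0.21 from edgeR). Food matched rats 1 to 4 lay above the Obese range and rat 5 within it. Lgals3, galectin-3, was at 759 to 1046 CPM in Obese and 828 to 1364 CPM in Food matched rats (0.40), and the lysosomal protease Ctsd at 2404 to 3133 and 2566 to 4016 CPM (0.32). Trem2, the lipid receptor that defines these cells, had a log2 fold change of 0.22 (95% interval −0.14 to 0.57), Gpnmb of 0.41 (−0.13 to 0.95) and Spp1, osteopontin, of 0.78 (−0.01 to 1.58), intervals that all take in 0. Apoe was at 919 to 1256 CPM in Obese and 1078 to 1479 CPM in Food matched rats (0.31). Beside these values the summed level of the adipocyte markers was lower in Food matched rats, as given above, and its part in them was not tested.

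Genes of lysosomes pointed the same way, but in a list that shares members with the one above and is not separate from it. Ctsd and Atp6v0d2, higher at an unadjusted p under 0.05, are counted in both lists. In the list of autophagy and lysosome genes 4 of 21 were higher and 0 lower at a p under 0.05 before adjustment, against 5.22% and 5.47% of all genes. With 1 rat left out in turn 3 to 7 (7 without Food matched rat 5) were higher, and 18 of 21 had a positive log2 fold change. Ctsl, a lysosomal protease, was at 689, 708, 807, 825 and 731 CPM in Obese and 1111, 995, 902, 912 and 754 CPM in Food matched rats (0.31). In the list of antigen presentation Ctss (0.35) and Ifi30 (0.23), which act in lysosomes as well, were higher at an unadjusted p under 0.05, and 13 of the 18 members had a negative log2 fold change.

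Several hormones of the adipocyte had lower levels in Food matched animals. Of 19 adipokine genes 7 were lower and 1 higher at a p under 0.05 before adjustment, against 5.47% and 5.22% of all genes, with a median log2 fold change of −0.14 and 3 to 7 (3 without Obese rat 1) lower with 1 rat left out in turn. Retn, which encodes resistin, was at 206, 201, 156, 161 and 156 CPM in Obese and 104, 58.1, 107, 83.2 and 150 CPM in Food matched rats, a log2 fold change of −0.81 (standard error 0.18, 95% interval −1.18 to −0.44, adjusted p = 0.0895 from edgeR), with no overlap although rat 5 lay close. Serpina12, vaspin, was at 2.89, 4.36, 2.90, 2.94 and 2.53 CPM and 1.67, 1.14, 1.59, 2.00 and 2.69 CPM (−0.78). Adipoq, adiponectin, was at 4134, 4445, 3476, 3875 and 4000 CPM and 3179, 2761, 3684, 3117 and 3787 CPM (−0.27, adjusted p = 0.22 from edgeR). Rbp4 (−0.24), Rarres2, which encodes chemerin (−0.20), Apln (−0.53) and Fgf21 (−0.44) were lower too, and Nampt (0.20) was the member that was higher.

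Lep, leptin, was at 6044, 5953, 4590.1, 5730.2 and 6013 CPM in Obese and 5643, 4245, 5748, 5305 and 5182 CPM in Food matched rats. Its log2 fold change was −0.12 with a 95% interval of −0.34 to 0.10, so that a decrease of up to 0.34 on the log2 scale could not be told from none. Among 10 adipocyte markers 9 had a negative log2 fold change and 3, Adipoq, Pparg (−0.21) and Lpl (−0.23), were lower at an unadjusted p under 0.05. In the list of adipocyte transcription factors 4 of 19 were lower and 2 higher at an unadjusted p under 0.05, against 5.47% and 5.22% of all genes. The median log2 fold change of this list was 0.01, and 10 of the 19 were positive. The number lower was 1 to 5 (1 without Obese rat 1 or Food matched rat 2, 2 without Obese rat 2 or Obese rat 5) with 1 rat left out in turn. Ebf1, an early adipocyte factor, was among the lower genes at 67.1 to 74.1 CPM in Obese and 56.5 to 63.7 CPM in Food matched rats (−0.20), with no overlap. Cebpd, a factor that glucocorticoids induce, was higher (0.43).

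**Figure D3:**
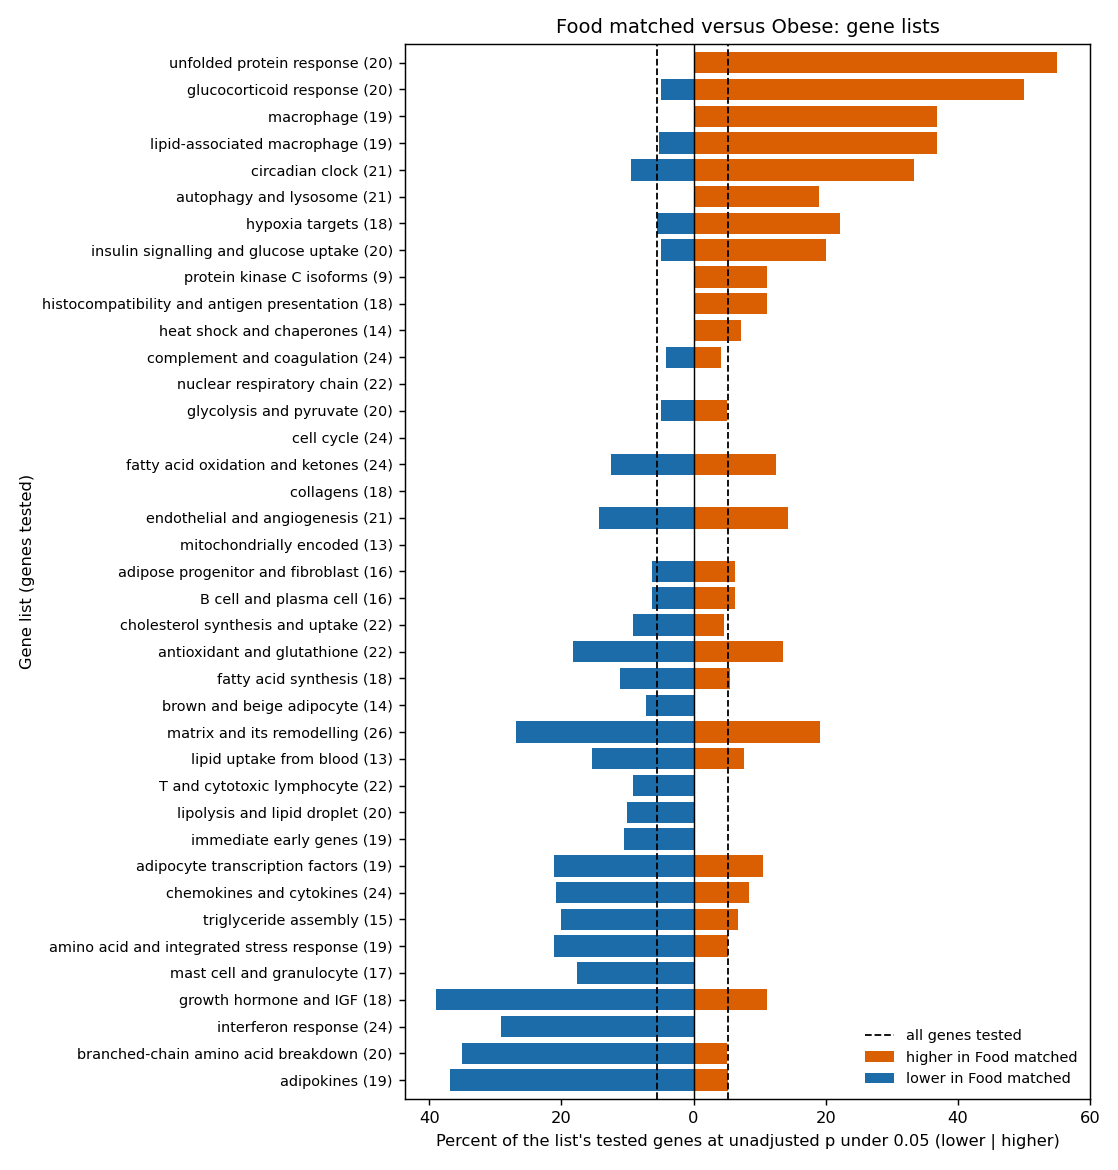
Percent of the tested genes of each pathway list that were higher (right) or lower (left) in Food matched than in Obese rats at an unadjusted p under 0.05, with the shares over all genes, 5.22% and 5.47%, as dashed lines. The unfolded protein and glucocorticoid response lists reach furthest to the right, with 11 and 10 of 20 genes, and the growth hormone and IGF list reaches furthest to the left, with 7 of 18.

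Lipid genes differed in few members. Of 20 genes of lipolysis and the lipid droplet 2 were lower and 0 higher at a p under 0.05 before adjustment. G0s2, the inhibitor of adipose triglyceride lipase, was at 214, 198, 167, 170 and 174 CPM in Obese and 144, 111, 150.4, 149 and 168 CPM in Food matched rats (−0.35, standard error 0.09, adjusted p = 0.126 from edgeR). Adrb3, the β3-adrenergic receptor of adipocytes, was at 33.9 to 61.9 CPM and 30.9 to 54.7 CPM (−0.35). The lipase gene Lipe was at 797 to 1011 CPM in Obese and 759 to 922 CPM in Food matched rats (−0.09, 95% interval −0.26 to 0.08). The lipase entry Pnpla2 was almost unread, with at most 37 reads in any of the 10 libraries. Its log2 fold change of −0.29 (95% interval −0.91 to 0.33) therefore cannot tell whether that lipase differed. The lists of fatty acid synthesis (1 higher and 2 lower of 18), cholesterol synthesis (1 and 2 of 22) and triglyceride assembly (1 and 3 of 15) had single members at that threshold, and the triglyceride count was 0 to 6 (0 without Obese rat 1 or Food matched rat 1 or Food matched rat 2, 5 without Obese rat 3, 6 without Food matched rat 5) lower with 1 rat left out in turn.

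Single lipid enzymes stood out from these lists. Hmgcs1, which makes the precursor of cholesterol, was at 333, 286, 258, 309 and 305 CPM in Obese and 187, 203, 242, 233 and 276 CPM in Food matched rats (−0.39, standard error 0.11). Pnpla3 was at 99.5 to 227 CPM and 56.3 to 142 CPM (−0.64) and Elovl5, a fatty acid elongase, at 192 to 247 and 147 to 213 CPM (−0.24). Fasn, fatty acid synthase, had a log2 fold change of −0.14 (95% interval −0.53 to 0.25) and Acly of −0.02 (−0.17 to 0.13). Of the enzymes that supply glycerol, Gpd1 was lower (2948 to 4817 against 4194 to 5189 CPM, −0.25) and Gk, glycerol kinase, higher (38.4 to 46.2 against 30.5 to 42.5 CPM, 0.26). Lpl, which takes up fatty acids from lipoproteins, was at 11240, 10738, 9562, 11168 and 11528 CPM in Obese and 9158, 8113, 9261, 9388 and 10467 CPM in Food matched rats.

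In fatty acid oxidation 3 genes were higher and 3 lower of 24, and the number lower was 8 without Obese rat 3 and 6 without Food matched rat 3 or 5. Pdk4, described above, and Ehhadh (0.31), an enzyme of peroxisomal oxidation, were among the higher genes. Ucp3 (−0.27) and the ketone-using enzymes Acat1 (−0.18) and Oxct1 (−0.18) were lower. Beige and brown adipocyte genes had 0 higher and 1 lower of 14, and Ucp1, the uncoupling protein of brown fat, had a log2 fold change of 0.06 with a 95% interval of −1.68 to 1.80.

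The respiratory chain showed no gene at an unadjusted p under 0.05, either among 22 nuclear genes (median −0.07) or among 13 mitochondrial genes (median −0.06). Without Obese rat 3 or Food matched rat 5 the number of nuclear genes lower at that threshold was 4 and 5, and without Food matched rat 3 it was 1. Some genes that break down branched-chain amino acids had lower levels. Of 20 members 7 were lower and 1 higher at an unadjusted p under 0.05, against 5.47% and 5.22% of all genes. In 18 of 20 the log2 fold change was negative. The number lower rested on single rats, at 2 to 11 (2 without Food matched rat 2, 3 without Obese rat 2 or Food matched rat 1, 4 without Obese rat 1, 11 without Obese rat 3) with 1 left out in turn. Pccb, a subunit of propionyl-CoA carboxylase, was at 109.7 to 137 CPM in Obese and 83.7 to 115 CPM in Food matched rats (−0.25). Bcat1, the cytosolic transaminase, was the member that was higher (0.38).

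Insulin signalling genes gave 4 higher and 1 lower of 20 at an unadjusted p under 0.05, against 5.22% and 5.47% of all genes. With 1 rat left out in turn, 2 to 5 (2 without Obese rat 1) were higher. The AKT kinases differed in opposite directions. Akt2, the isoform that carries the insulin signal in fat, was at 237, 248, 219, 224 and 229 CPM in Obese and 167, 173, 192, 188 and 216 CPM in Food matched rats (−0.31, standard error 0.07, adjusted p = 0.11 from edgeR), with every Food matched rat below every Obese rat. Akt1 was at 160.3 to 178 CPM and 172 to 197 CPM (0.13). Slc2a1, the glucose transporter of most cells, was at 11.5, 12.0, 13.4, 15.3 and 13.6 CPM and 17.4, 19.6, 17.7, 17.1 and 13.039 CPM (0.37), while Slc2a4, the insulin-responsive transporter, had a log2 fold change of −0.18 (95% interval −0.39 to 0.02). Insr (0.01, −0.11 to 0.13) and Irs1 (−0.19, −0.51 to 0.13) had intervals that take in 0.

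**Figure D4:**
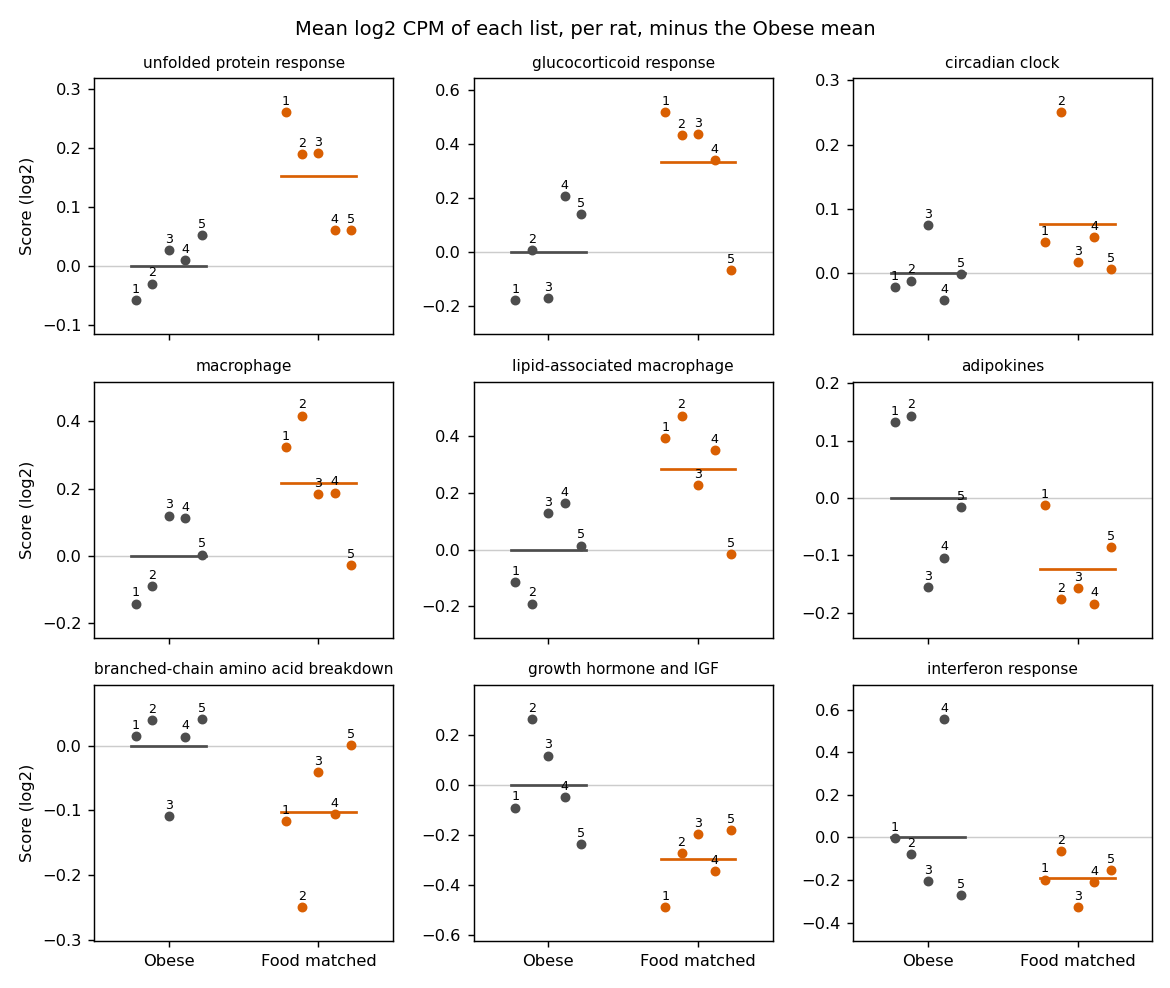
Mean log2 CPM of the tested genes of 9 lists in each rat, with the mean of the 5 Obese rats set to 0, rat numbers above the points and bars for group means. In the glucocorticoid, macrophage and lipid-associated macrophage lists Food matched rats 1 to 4 lie above the Obese rats and rat 5 among them, the unfolded protein response is the panel without overlap, and Obese rat 4 stands alone in the interferon panel at 0.5569.

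Growth hormone and IGF genes were lower in 7 of 18 members and higher in 2 at an unadjusted p under 0.05, against 5.47% and 5.22% of all genes. With 1 rat left out in turn, 4 to 7 (4 without Obese rat 2 or Food matched rat 1) were lower. Besides Cish, they included Prlr, the prolactin receptor, at 1.18, 1.20, 1.14, 1.86 and 0.764 CPM in Obese and 0.626, 0.310, 0.678, 0.629 and 0.852 CPM in Food matched rats (−0.99, standard error 0.24, adjusted p = 0.122 from edgeR), and Ghr, the growth hormone receptor (−0.21). Igfbp5, an IGF binding protein, was at 742, 821, 997, 627 and 700.5 CPM and 309.9, 660.4, 374, 447 and 741 CPM (−0.62), with Food matched rats 2 and 5 inside the Obese range. Igf2 was at 50.6, 27.6, 34.1, 34.4 and 33.3 CPM and 11.4, 15.7, 15.3, 21.1 and 43.7 CPM (−0.75), and Food matched rat 5 alone reached the Obese range. Igf1 had a log2 fold change of −0.31 (95% interval −0.62 to 0.00).

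Matrix genes differed both ways. Of 26 members other than the collagens 5 were higher and 7 lower at a p under 0.05 before adjustment, against 5.22% and 5.47% of all genes. With 1 rat left out in turn these were 3 to 6 (3 without Obese rat 1 or Obese rat 2 or Obese rat 5 or Food matched rat 2) higher and 4 to 7 (4 without Food matched rat 1 or Food matched rat 2) lower. Tnc, tenascin C of remodelled matrix, was at 43.8, 36.8, 57.6, 56.3 and 40.6 CPM in Obese and 115, 88.1, 78.9, 90.3 and 48.2 CPM in Food matched rats (0.84, standard error 0.22, adjusted p = 0.153 from edgeR). Ctgf, a matricellular growth factor, was at 79.1, 91.0, 70.8, 68.5 and 111 CPM and 183, 91.7, 178, 134 and 93.9 CPM (0.69, standard error 0.18). Lox, which crosslinks collagen and elastin, was lower without overlap, at 99.989, 118, 97.9, 103 and 116 CPM in Obese and 67.4, 54.2, 89.9, 82.9 and 87.5 CPM in Food matched rats (−0.49, standard error 0.12, adjusted p = 0.129 from edgeR). Eln, elastin (−0.51), Has2, a hyaluronan synthase (−0.78), and Sparc (−0.32) were lower with it. Among the 18 collagens 0 were at an unadjusted p under 0.05 and Col1a1 had a log2 fold change of −0.29 (95% interval −0.67 to 0.10).

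Vessel genes gave 3 higher and 3 lower of 21 at an unadjusted p under 0.05, against 5.22% and 5.47% of all genes. Lyve1, a marker of lymphatic vessels that some macrophages share, was at 35.6, 61.3, 44.9, 39.1 and 56.4 CPM in Obese and 85.6, 170.2, 74.0, 54.0 and 39.2 CPM in Food matched rats (0.84), with rat 2 far above the rest. The summed level of lymph node markers was 42.9 CPM in that rat and 10.5 to 20.2 CPM in the other 9, and its part in these values was not tested. Esm1 (−0.62) and Apln (−0.53), which tip cells of growing vessels make, were lower at an unadjusted p under 0.05. Progenitor genes gave 1 higher, Mgp (0.38), and 1 lower, Sema3c (−0.19), of 16.

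Single genes of other immune cells had lower levels. Prf1, perforin of cytotoxic lymphocytes, was at 5.23, 5.28, 4.65, 4.55 and 3.95 CPM in Obese and 3.18, 3.05, 2.57, 3.35 and 3.70 CPM in Food matched rats (−0.58, standard error 0.12, adjusted p = 0.0799 from edgeR), with no overlap. Gzma, granzyme A, was at 0.686 to 1.99 CPM and 0.460 to 0.945 CPM (−0.84), and these were the 2 lower genes of 22 in the T cell list, in which 0 were higher. That share, 9.09%, stood beside 5.47% lower over all genes. Ccl5, a chemokine of such cells, was at 6.14, 6.24, 4.74, 6.23 and 5.17 CPM and 3.31, 4.02, 3.20, 3.98 and 4.65 CPM (−0.57, standard error 0.16, adjusted p = 0.157 from edgeR), again with no overlap. Among 17 mast cell and granulocyte genes 3 were lower and 0 higher at an unadjusted p under 0.05, against 5.47% and 5.22% of all genes. The lower genes were led by Mpo, myeloperoxidase, at 109 to 147 CPM in Obese and 80.9 to 125 CPM in Food matched rats (−0.37). The B cell receptor chain Cd79b was under or near 1 CPM in every rat (0.376 to 1.04 against 0.119 to 0.352 CPM).

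The lower counts of interferon-induced genes rested on Obese rat 4. Of 24 members 7 were lower in Food matched animals and 0 higher at an unadjusted p under 0.05, and 0 to 9 (0 without Obese rat 4, 2 without Food matched rat 3, 3 without Food matched rat 4, 4 without Food matched rat 1) were lower with 1 rat left out in turn. Cxcl10, a chemokine that interferon induces, was at 5.39, 4.38, 3.65, 32.9 and 2.56 CPM in Obese and 2.83, 3.98, 2.76, 2.87 and 2.69 CPM in Food matched rats, and Rsad2, an antiviral enzyme, at 12.6, 9.82, 9.9986, 43.0 and 10.7 CPM and 6.61, 12.2, 6.62, 9.45 and 10.9 CPM. Leaving out Obese rat 4, the lowest and highest values of the groups overlapped in both genes. Cx3cl1 (−0.40) and Il1b (−0.58), which are not in that list, were lower too, and the chemokine and cytokine list had 5 lower and 2 higher of 24.

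Stress and proliferation genes gave few differences. Hmox1, heme oxygenase, was at 89.2, 84.2, 95.005, 99.4 and 90.3 CPM in Obese and 149.8, 143, 99.8, 133 and 106 CPM in Food matched rats (0.47, standard error 0.11, adjusted p = 0.11 from edgeR), without overlap, and Gstm1, a glutathione transferase, was lower without overlap (−0.18). The antioxidant list had 3 higher and 4 lower of 22, and 2 to 5 (2 without Obese rat 1 or Food matched rat 2) lower with 1 rat left out in turn. Of 18 hypoxia targets 4 were higher and 1 lower, and Egln3, an oxygen-sensing hydroxylase, was at 3.16, 3.13, 2.41, 2.00 and 1.84 CPM in Obese and 1.53, 1.49, 1.22, 1.27 and 2.37 CPM in Food matched rats (−0.67). Without Obese rat 4 the number of hypoxia targets higher was 2. The immediate early genes Nr4a1 (−0.52) and Egr1 (−0.41) were the 2 lower of 19. All 24 cell cycle genes tested had a positive log2 fold change, with a median of 0.13, but 0 were at an unadjusted p under 0.05, and Mcm6, with the smallest p, overlapped at 24.1 to 32.1 CPM in Obese and 24.5 to 36.7 CPM in Food matched rats.

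The protein kinase C isoforms, of which PKCα and PKCβ are the targets of the compound of the wider study, held no DEG. Prkcb was at 15.6, 15.0, 17.6, 17.5 and 17.3 CPM in Obese and 18.9, 19.9, 18.0, 19.2 and 18.3 CPM in Food matched rats (0.19, standard error 0.09, adjusted p = 0.444 from edgeR). It was the 1 isoform of those tested at an unadjusted p under 0.05, and its groups did not overlap, by 18.0 against 17.6 CPM. Prkca had a log2 fold change of 0.19 (95% interval −0.04 to 0.42), Prkcd of 0.15 (−0.06 to 0.36), Prkce of −0.14 (−0.30 to 0.03), Prkch of −0.13 (−0.29 to 0.03) and Prkci of −0.08 (−0.23 to 0.07). Prkcq lay at 4.85 to 6.26 CPM in Obese and 5.11 to 6.13 CPM in Food matched rats. Prkcz was at 1.08 to 3.83 CPM in Obese and 1.44 to 4.55 CPM in Food matched rats.

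The count of DEGs depended on Food matched rat 5 more than on any other rat. With each of the other 9 rats left out in turn edgeR called 0 DEGs, and genes at an unadjusted p under 0.05 ranged from 684 to 959 higher and from 665 to 1038 lower. Without rat 5 they were 1181 higher and 1299 lower, and of the 93 DEGs 92 were at an unadjusted p under 0.05 with rat 5 in the fit as well and 93 had the same direction. They included 8 of the 16 leading genes, and Retn, Prlr, Tnc, Ctgf and Prf1. Rat 5 was also the rat with muscle transcripts, and the part of these in its other values was not tested. In fits chosen after seeing the data, with Obese rat 4 left out beside it there were 114 DEGs, and with Obese rat 2 left out as well there were 30, 8 higher and 22 lower.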

How the data were processed

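Per the labels, strand-specific mRNA libraries were made from iWAT of separate animals. The authors used STAR for alignment and featureCounts to assign reads that mapped to 1 place, and the deposited table holds raw counts of 32545 genes with rn6 coordinates. The study's methods name rn6, and the submitters' processing notes list STAR 2.5.2, Subread 1.5.1 and, for a rat series, the human build GRCh38. Whether counting used strand is not given in the sources used here, so overlapping antisense genes and near-identical copies may share reads.

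Genes with 0 reads in at least 10 of the 20 libraries were dropped (14892), a filter that the study used as well, and 17653 were tested. Counts were scaled by TMM and tested with edgeR 4.0.16 (R 4.3.3) in a quasi-likelihood model of the 4 groups with 16 residual degrees of freedom. CPM were computed on TMM-scaled library sizes, and list means from log2 CPM with a prior count of 2. Benjamini-Hochberg adjustment ran over all tested genes, and DEGs were genes past 1.5-fold whose adjusted p was under 0.05. All p are two-sided. The script was tested on simulated data.

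Alternatives were limma-voom (limma 3.58.1), DESeq2 1.42.0, library size and DESeq2-type size factors as scaling, other filters on low counts, the 10 libraries alone, the replicate number as a block, other thresholds and each rat left out. Named genes were the 8 largest positive and 8 largest negative log2 fold changes among genes with a symbol, at least 1 CPM, an unadjusted p under 0.05 and no overlap, the 8 smallest p, up to 3 genes with the smallest p per pathway list, and Lepr, Lep and the PKC isoforms. The comparison and the lists were chosen with earlier results of these data known. Values of some listed genes are not reported here. Promoter sequences are from RefSeq (GRCr8), matched by symbol.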

Additional observations from a re-analysis of the deposited data

Results flagged for a closer look

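A single rat far from the other 4 of its group was found in 18 of 234 groups of 5 values, 1 for each named gene in each group. The test was Dixon's criterion, which chance alone meets in about 1 of 20 groups. Among the genes with the largest differences, Slc28a1 was at 1.785 CPM in Food matched rat 1, Zfp185 at 5.883 CPM in Obese rat 2, Pcp4l1 at 2.203 CPM and Spon2 at 20.47 CPM in Obese rat 3. The high Obese values of Zfp185, Pcp4l1 and Spon2 lay on the side away from the Food matched group. Kcnk15 was at 0.3526 CPM in Obese rat 5 and 0.03388 CPM in Food matched rat 3.

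In Obese rat 3, Apoe was at 1256.0 CPM, the chaperone gene Pdia4 at 116.8 CPM and Lep at 4590.0 CPM, which brought each of the 3 towards the Food matched rats. Serpina12 was at 4.361 CPM and Gstm1 at 50.31 CPM in Obese rat 2, and Fgf21, a hormone of liver and fat, at 10.6 CPM in Obese rat 1. Hsp90aa1, an almost unread entry, was at 0.05877 CPM in Obese rat 5 and listed at 0 in the other Obese rats. Interferon-induced genes were far up in Obese rat 4, with Cxcl10 at 32.87 CPM and Rsad2 at 43.0 CPM, and Cxcl10 stood out at 3.984 CPM in Food matched rat 2 as well. Egln3 was at 2.371 CPM in Food matched rat 5 and Prkcz at 4.553 CPM in Food matched rat 2.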

How the results depend on the processing

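The 0 DEGs of edgeR stayed 0 with library size alone or DESeq2-type size factors as scaling, with all genes that had any read, with edgeR's own filter, with the 10 libraries alone and without a fold threshold. There were 10 with limma-voom, 69 with DESeq2, 2 with the replicate number as a block (Zfp185 and Cyp4f39, both lower) and 15 at an adjusted p under 0.10. Leaving out 1 rat in turn gave 0 to 93 DEGs, 684 to 1181 genes higher and 665 to 1299 lower at an unadjusted p under 0.05, and 244 to 561 genes above and 225 to 552 below without overlap. The highest of these came without Food matched rat 5. Of the fits added after seeing the data, the one without Obese rat 4 and Food matched rat 5 gave 114 DEGs and 850 genes above and 779 below without overlap, and the one that left out Obese rat 2 as well gave 30, 1060 and 968. With fewer rats a lack of overlap is met more easily. The replicate numbers did not pair the rats, since deviations of rats of the same number correlated at −0.0791 to 0.0294 over genes. For 117 named genes, 2247 of 2338 values kept their direction and their side of the threshold, 78 passed the threshold in addition (34 higher, 44 lower) and 0 lost it. The 13 that turned sign were all of 2 PKC isoforms, Prkcq (−0.0027243) and Prkcz (0.31862). Prkcq turned to 0.005155 with limma-voom, 0.000105 with DESeq2, 0.018069 with library size alone, 0.000168 with DESeq2-type size factors and 0.002333 with the replicate block. With 1 rat left out in turn it ranged from −0.060656 to 0.037793 (without Obese rat 5 and Food matched rat 5), and Prkcz from −0.084574 to 0.75291 (without Food matched rat 2 and Obese rat 2). In the 2 added fits Prkcq was at 0.045604 and 0.087171. The cause of these shifts was not tested. With 5 rats a group, the 95% interval of a gene of at least 1 CPM had a median half-width of 0.165 on the log2 scale, and the precision differed from gene to gene.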

Other observations

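Transcripts of neighbouring tissues differed between single rats and in part between the groups. Skeletal muscle markers summed to 21.3 to 24.1 CPM in Obese rats 1 to 4 and 10.9 CPM in Obese rat 5, and to 9.77 to 13.1 CPM in Food matched rats 1 to 4. The skeletal muscle actin Acta1 had 20.7 CPM in Food matched rat 5 and no more than 0.0552 CPM in Food matched rats 1 to 4, while Obese rats 1 to 4 had 1.82 to 2.16 CPM and Obese rat 5 had 0.206 CPM. Erythroid markers summed to 1205 CPM in Obese rat 3. Ccl21, a chemokine of lymph nodes, was at 19.8 CPM in Food matched rat 2.

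Markers of nerves and Schwann cells summed to 1825 to 2208 CPM in Obese and 1495 to 1954 CPM in Food matched rats. In Food matched rats 1 to 4 the sum was below every Obese rat. Most of each sum was S100b, a calcium-binding protein that adipocytes make as well. S100b was at 1417 to 1758 CPM in Obese and 1082 to 1527 CPM in Food matched rats, a log2 fold change of −0.31. The mean log2 CPM of the 12 markers, with the Obese mean at 0, was −0.21 to 0.26 in Obese and −0.15 to 0.33 in Food matched rats. These means overlapped, so the sums do not show that nerve markers as a set were lower. Gland and skin epithelium markers summed to 81.2 to 161 CPM and 87.8 to 182 CPM, so these ranges overlapped. Dsp alone was at 32.3 to 86.0 CPM, and such sums hide markers of low level. Obese rat 2 had 3.06 CPM of Krt7, 4.22 CPM of Dsg2 and 1.28 CPM of Krt18, against at most 0.288, 0.612 and 0.704 CPM in the other 9 libraries. Epcam (0.542 CPM) and Cdh1 (1.17 CPM) were highest in Obese rat 4. The part of these transcripts in the place of Obese rat 2 on the first principal component was not tested.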
